A study of Mus with 4 samples.

Results

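The nuclear-encoded genes of oxidative phosphorylation (OXPHOS) were read in single-cell RNA sequencing libraries of mouse dorsal root ganglia (DRG), the ganglia that hold the cell bodies of the somatosensory neurons. The set was taken by symbol: every gene whose name begins with Ndufa, Ndufb, Ndufc, Ndufs or Ndufv and a digit, with Uqcr, with Cox4 to Cox8 or with Atp5, and the Sdha to Sdhd genes, without symbols that contain -ps. This gave 85 features under 84 symbols, of 31253 features in the count matrices. All DRGs were the left L4 and L5 ganglia of wild-type male C57BL/6J mice aged 8 weeks. The CCI group (2 libraries) had a chronic constriction injury, made with 4 loose ligatures round the left sciatic nerve 3 d before the tissue was taken, and the CON group (2 libraries) was naive, without surgery. Neither the labels nor the methods say how many mice gave each library, and nothing says that the libraries of a group came from separate animals. The p-values of CCI against CON thus measure the spread between libraries, which may not be that between animals. Comparisons of classes within libraries carried the library as a block. Their p-values measure the spread that remains between sums once differences between libraries are taken out. The sample labels name the cells as neurons and describe collagenase digestion with freezing, the methods of the study describe another enzyme mix, and the matrices held neurons together with glia, fibroblasts, pericytes, endothelial and immune cells.

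Oxidative phosphorylation makes ATP in the inner mitochondrial membrane. Complex I takes electrons from NADH and complex II takes them from succinate, complex III and complex IV pass them on to oxygen, and complex V, the ATP synthase, uses the proton gradient that complexes I, III and IV build. Nearly all subunits are encoded in the nucleus and imported, while a small set of core subunits is encoded in mitochondrial DNA, so each complex other than complex II is built from both genomes. Sensory neurons are known for a high demand for ATP, since ion pumping and transport must be kept up along very long axons, and fast-firing myelinated afferents are known to be rich in mitochondria.

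By symbol, the 85 features comprised 37 of complex I, 4 of complex II, 8 of complex III, 18 of complex IV and 18 of complex V. Ndufa4 is counted here under complex I for its name, although its product is now placed in complex IV. The symbol Atp5o stood under 2 gene identifiers at one locus, of which ENSMUSG00000116933 had no UMI in any library and ENSMUSG00000022956, listed as Atp5o.1, carried all of the signal. All the features matched a RefSeq gene of GRCm38.p6, and 84 of the 85 had at least 1 unique molecular identifier (UMI, a tag that marks one captured RNA molecule). Many of these genes have processed pseudogenes in the mouse genome, and reads that fit both copies could not be assigned, so the level of a single member is uncertain.

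After cells with 500 genes or fewer, or with 20% or more mitochondrial UMIs, were left out, 11155 and 10602 cells remained in the CCI libraries and 10743 and 2613 in the CON libraries, with medians of 3675 and 4552 UMIs against 2508 and 8352. The second CON library thus had the fewest and deepest cells. Clusters were named from marker genes, so neuron here means a neuron-like cell, and likewise for the other types and for the neuron subtypes, which keep the ending "-like". Neurons numbered 1452 and 854 cells in the CCI libraries and 1098 and 226 cells in the CON libraries. Neuron clusters with at least 3 of the injury markers Atf3, Sprr1a, Camk1, Flrt3 and Gpr151 were named CIP-like, whatever their subtype markers. The name follows the CCI-induced neuronal population of the study. RNA of neuronal marker genes was found in every other cell type, at 9.15 to 44.2% of the neuron level in the CCI libraries and at 22.7 to 49.7% in the first CON library, but at only 1.98 to 4.52% in the second. No doublets were removed, and pairs of libraries shared 12 to 31 cell barcodes. A further 8276 barcodes had neuronal genes but few UMIs, with medians of 1112 to 1447, and were kept apart. The members took 4.77 and 4.47% of their UMIs in CCI and 5.57 and 5.71% in CON. Their largest cluster, of 3924 barcodes, had Pvalb and Nefh, markers of NF2-like neurons, among its leading genes. The next, of 2147 barcodes, had Cd55, a marker of NP1-like neurons. The rule that kept these barcodes apart was set with earlier results known. Also outside the 7 types were clusters of 1855 and 1094 cells that stayed unnamed, and 374 and 50 cells named erythrocytes and proliferating cells. The cluster of 1855 cells had Scn7a, Cdh19 and Gjc3 among its leading genes, and satellite glia was its closest list. That of 1094 cells had Atf3 and Egr2.

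In neurons the members ranged from the most abundant RNAs to ones that were barely seen. The level in CPM, the UMIs of a gene scaled to the usual fixed total of non-mitochondrial UMIs in each class, averaged over 1000 for 9 members, from 100 to 1000 for 65, from 10 to 100 for 2, from 1 to 10 for 2 and under 1 for 7. The 7 lowest were the empty identifier of Atp5o and tissue-restricted forms of single subunits, the muscle forms Cox6a2 and Cox8b, the testis forms Cox6b2, Cox7b2 and Cox8c and the hypoxia-induced Ndufa4l2. Cox8b, Cox8c and Atp5o did not pass the filter on low counts in neurons, so 82 of the 85 were tested there. Ndufa4 (chr6:11900372-11907450, GRCm38) was the highest, at 1918 and 1981 CPM in the CCI libraries and 1975 and 2740 CPM in the CON libraries. Cox8a and Cox4i1, small and membrane-spanning subunits of complex IV, led that complex. Cox8a had 1534 and 1592 CPM in CCI neurons, against 1709 and 2322 in CON neurons. Cox4i1 had 1367 and 1562 CPM in CCI neurons, against 1626 and 1319 in CON neurons. The highest members of complex V were Atp5g1, one of the genes for the proton-carrying c subunit, at 980 and 1099 CPM in CCI and 1054 and 1185 CPM in CON, and Atp5d, the delta subunit of the rotor stalk, at 919 and 1139 CPM in CCI and 883 and 997 CPM in CON. Uqcrh, the hinge protein of complex III, had 699 and 747 CPM in CCI neurons and 925 and 811 CPM in CON neurons. The complex II genes were far lower. Sdhb, its iron-sulphur subunit, had 300 and 360 CPM in CCI and 278 and 357 CPM in CON, and Sdha, the flavoprotein that binds succinate, had 113 and 113 CPM in CCI and 120 and 115 CPM in CON.

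The summed members took a larger share of RNA in neurons than in most other cell types, with a spread between libraries in every type. In neurons they made up 3.76 and 4.00% of non-mitochondrial UMIs in the CCI libraries and 4.07 and 4.87% in the CON libraries. Pericytes reached 4.21 and 3.17% in CCI and 4.28 and 3.29% in CON, so they overlapped with neurons. Their cluster of 1501 cells was led by Acta2 and Myh11, genes of vascular smooth muscle, beside Notch3 and Rgs5. Clustering without integration kept 826 cells led by Kcnj8 and Abcc9 apart from 669 led by Acta2 and Myh11. The class called pericytes here thus mixes pericytes with cells like vascular smooth muscle, and its values are those of the mixture. Satellite glia, which wrap the neuron cell bodies, had 3.51 and 2.89% in CCI and 3.76 and 3.19% in CON. Endothelial cells were the lowest, with 2.55 and 1.90% in CCI and 2.40 and 1.96% in CON. Schwann cells, fibroblasts and immune cells ranged from 2.17 to 3.51% in CCI and from 1.99 to 3.72% in CON. In each of the 6 non-neuronal types the first library of a group was higher than the second, while in neurons the second was higher. The share of neuronal marker RNA in these types was also higher in the first library of each group, and its part in the result was not tested.

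**Figure D1:**
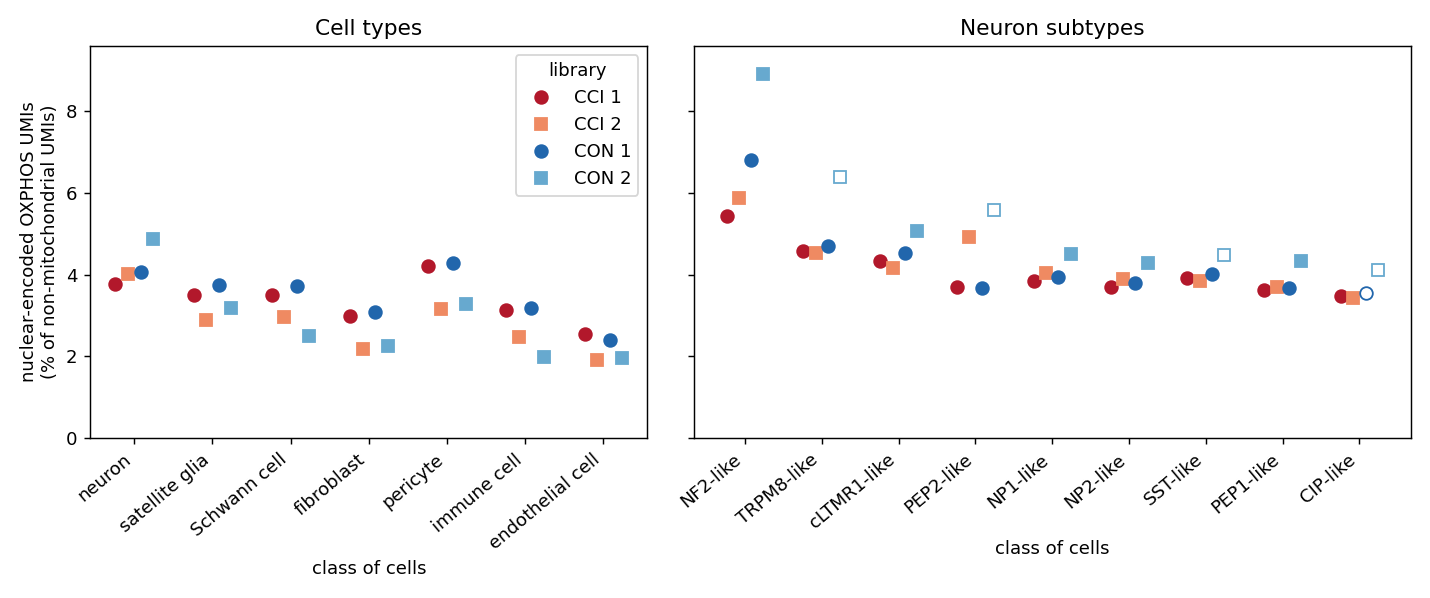
Share of non-mitochondrial UMIs (percent, vertical axis) that fell on the summed nuclear-encoded OXPHOS members, by cell type in the left panel and by neuron subtype in the right panel, with 1 point per library and CCI left of CON. Open symbols mark a class with fewer than 20 cells in that library. The NF2-like neurons stand highest among the subtypes, at 5.44 and 5.87% in CCI and 6.80 and 8.90% in CON, and endothelial cells stand lowest among the types.

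Against the other cell types of the same libraries, 62 of the 81 members tested were higher in neurons and 5 were lower (edgeR quasi-likelihood test, adjusted p under 0.05), where 74.8% of all genes tested passed, 38.8% higher and 36% lower. The median log2 fold change of the members was 0.46, against -0.02 over all genes tested. The higher members came from every complex: 30 of 37 of complex I, 2 of 4 of complex II, 6 of 8 of complex III, 11 of 15 of complex IV and 13 of 17 of complex V. Ndufv3, a supernumerary subunit beside the NADH-binding module of complex I, had the largest fold change of the well-expressed members, 1.47 ± 0.12 on the log2 scale (SE), followed by Ndufa4 at 1.30 ± 0.18, Atp5g1 at 1.23 ± 0.15 and Cox6a1 at 1.21 ± 0.13. Sdhc, a membrane anchor of complex II, was lower in neurons by a log2 fold change of -0.26, and Sdhb was higher by 1.09. Sdha and the catalytic ATP synthase subunit Atp5b were at -0.12 and 0.02 and did not pass the test (adjusted p = 0.143 and 0.869, edgeR). The count of members called was 43 without the second CCI library and 37 when all sums were thinned to one depth. Among related lists, 64 of 77 mitochondrial ribosomal proteins were higher in neurons and 1 lower, and 11 of 18 genes of the TCA cycle were higher and 2 lower, whereas cytosolic ribosomal proteins were higher for 2 and lower for 58 of 80.

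The other members lower in neurons were tissue-restricted forms of a subunit, Ndufa4l2, Cox4i2, Cox7a1 and Cox6b2, which other cell types carried. Ndufa4l2, a paralogue of Ndufa4 that is induced by low oxygen (chr10:127509274-127517154), had 862 and 821 CPM in CCI pericytes and 748 and 1197 CPM in CON pericytes, while neurons had 0.549 and 0.482 CPM in CCI and 0.559 and 1.06 CPM in CON. Its fold change in pericytes against the other types was 8.64 on the log2 scale. Ndufa4l2 was among the genes that led the pericyte cluster, so its test there is not read, although it stands in the count of members called. Cox4i2, the oxygen-responsive form of subunit 4 of complex IV (chr2:152753916-152765039), had 385 and 383 CPM in CCI pericytes and 316 and 668 CPM in CON pericytes, with a fold change of 6.71 ± 0.17. Both genes therefore stood far above every other type in pericytes, in all libraries. Cox7a1, the heart and skeletal muscle form of subunit 7a (chr7:30184171-30186030), was higher in satellite glia by 2.37 ± 0.15, with 24.5 and 22.4 CPM in CCI and 32.2 and 55.7 CPM in CON, against 3.07 and 3.75 CPM in CCI neurons and 4.17 and 4.36 CPM in CON neurons. Cox6b2, known as the testis form of subunit 6b (chr7:4751792-4753094), was higher in fibroblasts and satellite glia, by 2.54 and 2.14 ± 0.16. Fibroblasts had 32.8 and 42.0 CPM of Cox6b2 in CCI and 56.4 and 70.6 CPM in CON, while neurons had 0.707 and 0.946 CPM in CCI and 1.09 and 0.842 CPM in CON. Cox6a2, another muscle form (chr7:128205435-128206366), had 3.45 and 3.84 CPM in CCI immune cells and 8.31 and 11.9 CPM in CON immune cells, from 7 and 23 UMIs and from 13 and 14 UMIs. It passed the filter on low counts through the immune cells alone, so no test of it is read between types, although it stands in the count of members called there. The common form Ndufa4 had 1374 and 699 CPM in CCI pericytes and 1422 and 416 CPM in CON pericytes, so the restricted Ndufa4l2 was above it in the second library of each group and below it in the first. Pericytes of those second libraries also held less neuronal marker RNA, at 18.4% of the neuron level in CCI and 2.86% in CON, against 44.2 and 49.7% in the first libraries, and the part of stray neuronal RNA in the Ndufa4 level was not tested. Cox4i1 stayed above Cox4i2 in pericytes in every library, with 1608 and 1283 CPM in CCI and 2001 and 952 CPM in CON.

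**Figure D2:**
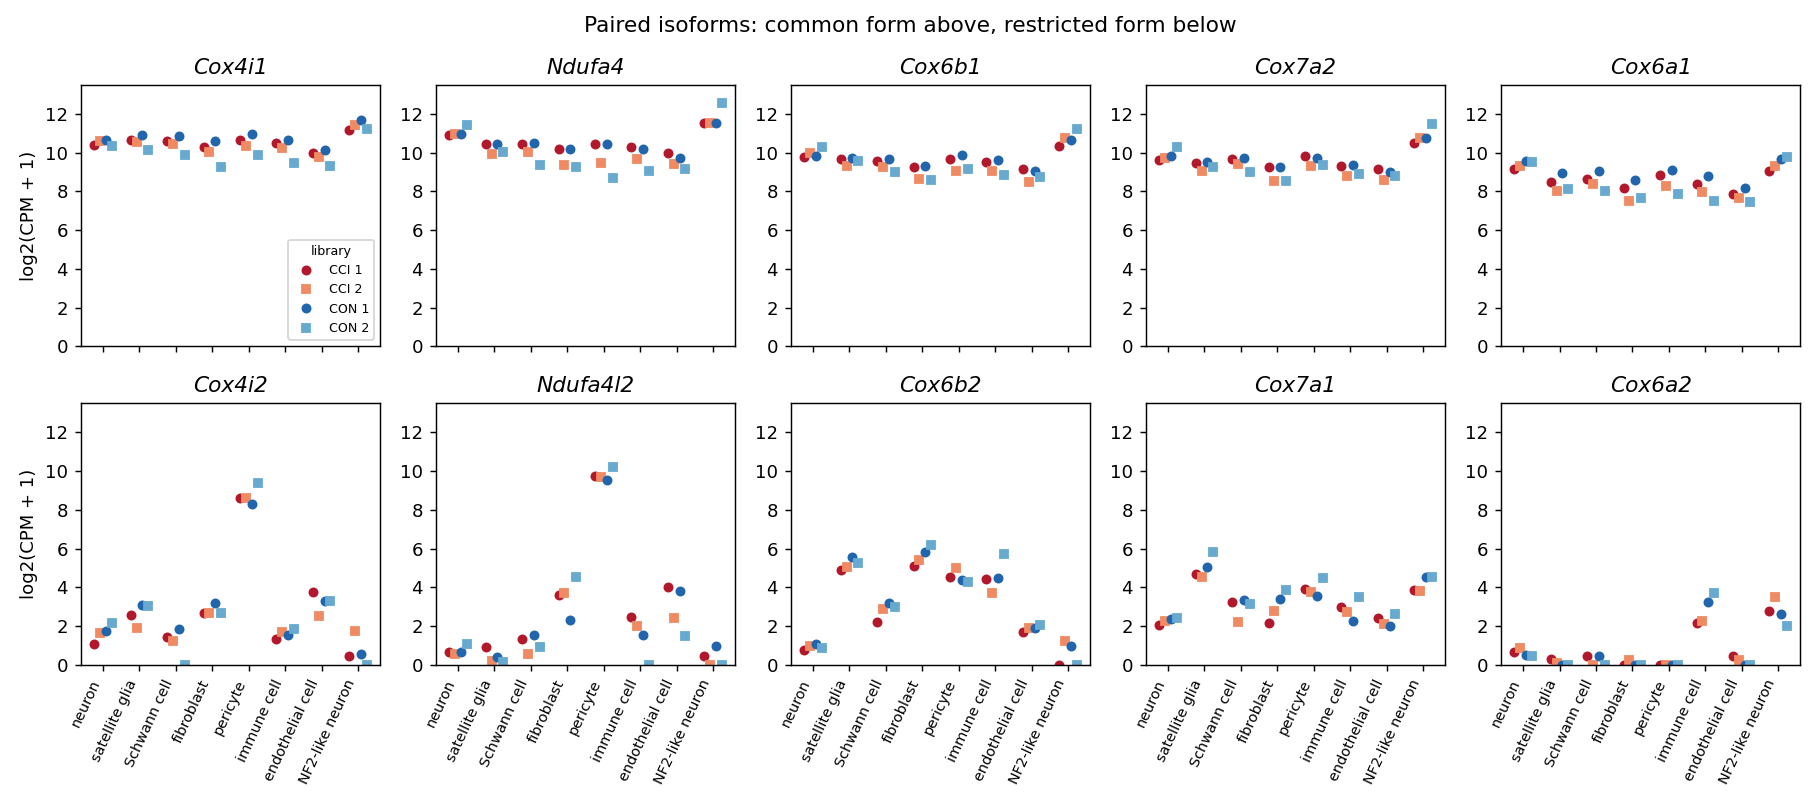
Levels of 5 pairs of related subunits, the common form and its restricted form, as log2(CPM + 1) on the vertical axis, in the 7 cell types and in the NF2-like neurons, with 1 point per library and CCI left of CON. Ndufa4l2 and Cox4i2 rise far above the other types in pericytes, Cox7a1 in satellite glia, and Cox6b2 in satellite glia and fibroblasts, while the common forms vary much less.

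Apart from these forms, each of the other types had its own profile. In satellite glia 29 of 81 members were higher than in the other types and 1 was lower (54.5% of all genes tested passed, 28.2% higher and 26.2% lower), among them Ndufa13, a complex I subunit also known as Grim19, at a log2 fold change of 0.79, and Sdhc at 0.60. In pericytes 18 members were higher and none lower (28.8% of genes passed, 16% higher and 12.8% lower). They included the catalytic head of the ATP synthase, Atp5b at 0.55 and Atp5a1 at 0.49, together with Sdha at 0.31 and Sdhc at 0.65. Sdhc had 169 and 157 CPM in CCI pericytes and 140 and 120 CPM in CON pericytes, against 73.5 and 91.4 CPM in CCI neurons and 75.4 and 72.4 CPM in CON neurons. In endothelial cells 68 of 81 members were lower and 2 higher (60.2% of genes, 27.7% higher and 32.5% lower), with the strongest decreases in Atp5g1 at -1.14, in Atp5mpl, a small accessory subunit of the ATP synthase, at -1.02 and in Ndufa13 at -1.01. The members higher in endothelial cells were Ndufa4l2 at 0.87 and Cox7a2l, a factor in the joining of complexes III and IV, at 0.42. Fibroblasts had 3 members higher and 30 lower (36.3% of genes, 19.8% higher and 16.6% lower), with Cox6c the only common subunit among the higher, at 0.59. Immune cells had 3 higher and 14 lower (49.4% of genes, 24.6% higher and 24.8% lower), which became 3 and 31 on library totals without TMM factors and 5 and 1 when all sums were thinned to one depth. Thinning also left 16 members higher and 1 lower in satellite glia and 3 higher and 9 lower in fibroblasts. Schwann cells had 2 higher and 4 lower (32.5% of genes, 17.4% higher and 15.1% lower). The median log2 fold change of all genes tested lay between -0.13 and -0.02 in these comparisons. Without TMM factors the median of all genes in pericytes moved by 0.14, and 38 members were then higher. The counts also moved when single libraries were left out: in pericytes to 10 without the first CCI library and 32 without the second CON library, in Schwann cells to 3 and 12 without the same libraries, in fibroblasts to 9 without the second CCI library, and in immune cells to 11 without the first CCI library and 5 without the second.

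Among neuron subtypes the NF2-like neurons, large myelinated afferents by their markers, had the highest summed shares. The members made up 5.44 and 5.87% of their UMIs in CCI and 6.80 and 8.90% in CON, and all 4 values were above those of NP1-like, NP2-like, PEP1-like and cLTMR1-like neurons in any library. TRPM8-like neurons had 4.58 and 4.54% in CCI and 4.69 and 6.40% in CON, of which the last came from 13 cells. PEP2-like neurons had 3.70 and 4.92% in CCI and 3.67 and 5.58% in CON, of which the last came from 5 cells, so they were above the TRPM8-like neurons in the second CCI library and below them in the others. cLTMR1-like neurons, low-threshold mechanoreceptors with unmyelinated fibres, had 4.33 and 4.15% in CCI and 4.54 and 5.07% in CON. Of the non-peptidergic nociceptors, NP1-like neurons had 3.84 and 4.05% in CCI and 3.94 and 4.52% in CON, and NP2-like neurons had 3.70 and 3.89% in CCI and 3.79 and 4.29% in CON. PEP1-like neurons, peptidergic nociceptors by most of their markers, had 3.62 and 3.70% in CCI and 3.67 and 4.34% in CON. The line between PEP1-like and PEP2-like neurons is uncertain. The largest PEP1-like cluster, of 316 cells, was led by Sstr2, listed as a PEP2 marker. The PEP2-like cluster of 240 cells had Htr3a, an NF1 marker, among its leading genes and none of the listed PEP2 markers there. The shares of NP1-like, NP2-like, SST-like, PEP1-like and CIP-like neurons overlapped. Per cell, the NF2-like neurons were less even: the median over cells was 3.85 and 5.88% in CCI and 3.18 and 4.99% in CON, and cells with few UMIs had lower shares. By this median they did not rank highest in every library. In the first CCI library NP1-like, SST-like, cLTMR1-like and TRPM8-like neurons had higher medians, at 4.01, 4.00, 4.45 and 4.47%. In the first CON library NP1-like, NP2-like, SST-like, PEP1-like, cLTMR1-like and TRPM8-like neurons did, at 3.68 to 4.55%. In the second CON library cLTMR1-like and TRPM8-like neurons did, at 5.11 and 5.88%. Among NF2-like cells with at least 20000 UMIs the share was 5.58 and 5.94% in CCI and 7.48 and 9.12% in CON, and among cells below that it was 3.83 and 3.76% in CCI and 2.37 and 4.80% in CON.

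Subtypes were tested against each other where each of the 4 libraries gave 20 cells or more, which held for 5 of them. In NF2-like neurons 56 of 79 members were higher and 3 lower (62.4% of all genes tested passed, 32.7% higher and 29.7% lower), with a median log2 fold change of 0.56, against 0.00 over all genes tested, and without TMM factors these were 0.68 and 0.11. Complexes IV and V had the highest medians. Of complex V, 15 of 17 members were higher and none lower, and of complex IV 11 of 14, whereas complex I had 23 of 36 higher and 2 lower. Cox5a, a matrix-side subunit of complex IV (chr9:57517328-57532427), had 1957 and 2115 CPM in CCI and 2297 and 2926 CPM in CON NF2-like neurons, against 813 and 778 CPM in CCI and 692 and 663 CPM in CON NP1-like neurons. Its fold change over the other subtypes was 1.23 on the log2 scale. Atp5md (chr19:47083471-47090647) and Atp5k, small subunits of the membrane part of the ATP synthase, were higher by 1.19 and 1.17, Cox6c by 1.09 and Uqcr10 of complex III by 1.00. The muscle form Cox7a1 was also higher here than in the other tested subtypes, with 13.3 and 12.9 CPM in CCI and 22.3 and 21.8 CPM in CON, a fold change of 3.04 ± 0.22. Cox6a2 had 5.81 and 10.2 CPM in CCI and 5.22 and 3.01 CPM in CON, from 17 and 30 UMIs and from 11 and 4 UMIs, and it passed the filter on low counts through the NF2-like sums alone, so its test is not read.

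The members lower in NF2-like neurons belonged to complexes I and II, where electrons enter the chain: Ndufv1, Sdhb and Ndufs4. Ndufv1, the NADH-binding subunit of complex I, had 207 and 122 CPM in CCI and 171 and 129 CPM in CON NF2-like neurons, against 350 and 304 CPM in CCI and 303 and 195 CPM in CON NP1-like neurons, and its fold change over the other subtypes was -0.88 ± 0.15. Sdhb was at -0.38. Ndufs4, a late-assembled complex I subunit, was at -0.22 (adjusted p = 0.0302, edgeR), and its call was lost in 6 of 10 alternatives, with fold changes of -0.33 to -0.10 and an adjusted p of up to 0.322. Within complex II, Sdha at 0.81 and Sdhc at 0.32 were higher while Sdhb was lower, and Sdhd was at 0.00. Of the related lists, 12 of 18 TCA cycle and pyruvate oxidation genes were higher in NF2-like neurons and none lower, with Dlst and Dlat, subunits of the 2-oxoglutarate and pyruvate dehydrogenase complexes, at 1.23 and 1.13. Of 13 regulators of mitochondrial biogenesis 7 were higher and 2 lower, with the coactivator Ppargc1a at 3.39 ± 0.14 among the higher. The nuclear receptor Esrrg had a fold change of 7.90. It was among the genes that led the NF2-like cluster, so its test is not read, although it stands in that count. Mitochondrial ribosomal proteins went the other way, with 9 of 77 higher and 39 lower. Over all genes tested 32.7% were higher and 29.7% lower in this comparison.

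**Figure D3:**
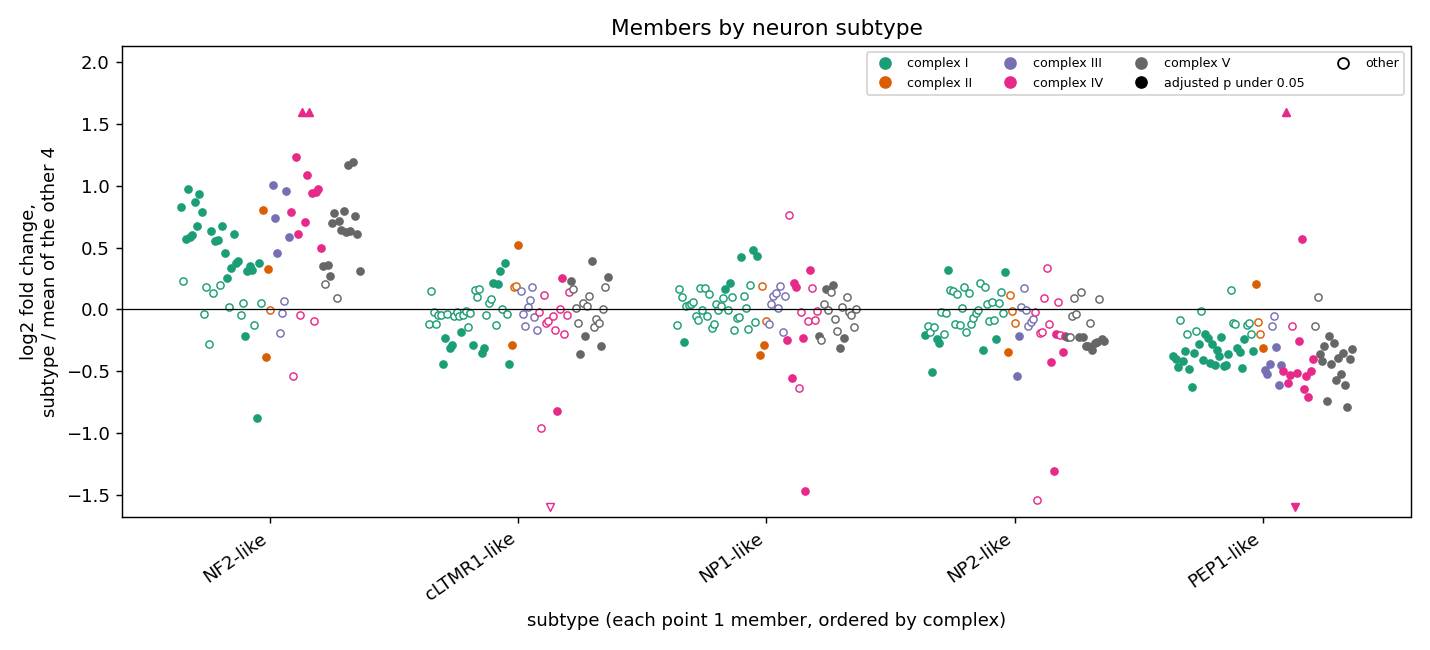
Log2 fold change of each member in a neuron subtype over the other 4 tested subtypes (vertical axis), by subtype, with 1 point per member. Filled points passed at an adjusted p under 0.05 and triangles mark values beyond 1.6 in either direction. Most members lie above 0 in NF2-like neurons, where 56 passed higher and 3 lower, and below 0 in PEP1-like neurons, where 3 passed higher and 59 lower.

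Each subtype was set against the mean of the other 4, so that the values of the subtypes depend on each other. In PEP1-like neurons 59 of 79 members were lower and 3 higher (51.8% of genes, 27.1% higher and 24.7% lower), with a median log2 fold change of -0.36 and the strongest decreases in Atp5mpl at -0.79, Atp5g1 at -0.75 and Cox7b, an X-linked subunit of complex IV, at -0.71. The higher ones were Cox4i2, Cox7a1 at 0.57 and Sdha at 0.20. Cox4i2 had only 3.33 and 4.56 CPM in CCI and 4.33 and 7.28 CPM in CON PEP1-like neurons, and since it passed the filter on low counts through these sums its test is not read. All 8 genes of the dissociation stress list, immediate early and heat shock genes, were also higher in PEP1-like neurons, and their part in the result was not tested. NP1-like neurons had 10 members higher and 10 lower (51.6% of genes, 27.1% higher and 24.5% lower), with Ndufv1 at 0.48, Ndufv3 at 0.43 and Ndufs4 at 0.42 among the higher and Cox5a at -0.56 and Sdha at -0.37 among the lower. Ndufv1 was thus low in NF2-like and high in NP1-like neurons, in comparisons that share the same sums. NP2-like neurons had 2 higher and 24 lower (45.8% of genes, 23.7% higher and 22.1% lower), with Uqcr10 at -0.54 and Ndufa12 at -0.51 among the lower. cLTMR1-like neurons had 9 higher and 14 lower (50.6% of genes, 27.7% higher and 22.9% lower), and Sdhd, the second membrane anchor of complex II, was higher at 0.52, with 176 and 154 CPM in CCI and 138 and 173 CPM in CON. The median of all genes moved by -0.16 in NP1-like, -0.13 in NP2-like and 0.12 in PEP1-like neurons when TMM factors were left out. In NP1-like, NP2-like and cLTMR1-like neurons the split of higher and lower calls moved by over 10 percentage points with the scaling: on library totals without TMM factors it was 3 higher and 33 lower in NP1-like, 1 and 46 in NP2-like and 16 and 11 in cLTMR1-like neurons. The number called in NP1-like neurons was 9, 10 and 12 without the first CCI, the first CON and the second CON library, in NP2-like neurons it was 16, 11 and 14 without the same libraries, and in cLTMR1-like neurons it was 15 and 12 without the first CCI and the first CON library.

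The comparison of CCI with CON asks whether the members changed 3 d after the nerve was constricted. In neurons none of the 82 members tested passed, by edgeR or by DESeq2, and none had an unadjusted p under 0.05, while 4.14% of all genes tested passed in edgeR, 3.7% higher and 0.44% lower, and 2561 of 15460 genes had an unadjusted p under 0.05. The median log2 fold change of the members was -0.12, against -0.02 over all genes. Both CCI libraries lay below both CON libraries for 36 members and above them for 4, where 28.5% and 19.1% of all genes did so. The summed share averaged 3.88 ± 0.173% in CCI and 4.47 ± 0.568% in CON (SD, n = 2 each), and an exact permutation test of 2 against 2 libraries cannot give a p below 0.333. The second CON library, the deepest, was the highest for many members. Atp5mpl had 452 and 532 CPM in CCI and 536 and 1067 CPM in CON (log2 fold change -0.64 ± 0.32, adjusted p = 0.361, edgeR). Ndufa3, a small complex I subunit, had 142 and 146 CPM in CCI and 158 and 294 CPM in CON, at -0.58. Cox5a leaned the other way, with 1109 and 1213 CPM in CCI and 926 and 1058 CPM in CON (0.30 ± 0.19, adjusted p = 0.510, edgeR). Without the first CON library 8 members passed, all lower in CCI, in a fit that sets both CCI libraries against the second CON library alone.

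The RNA encoded in mitochondrial DNA for the same complexes did not follow the nuclear members. Its 13 genes took 3.80 and 3.56% of all UMIs in CCI neurons and 3.16 and 3.09% in CON neurons, so that both CCI libraries were higher, whereas the nuclear members were lower in both. In NF2-like neurons the mitochondrially encoded genes took 4.18 and 4.45% in CCI and 2.89 and 2.83% in CON. Beside this, 1 of 21 glycolysis genes was higher in CCI neurons, the glucose transporter Slc2a1 at 1.81 ± 0.19 (adjusted p = 0.000987, edgeR), and no gene of the TCA cycle, of the assembly factors or of either ribosome list passed. In the dissociation stress list Atf3, also an injury gene, and Jun were higher, and its median was 1.00. The part of dissociation in these values was not tested.

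**Figure D4:**
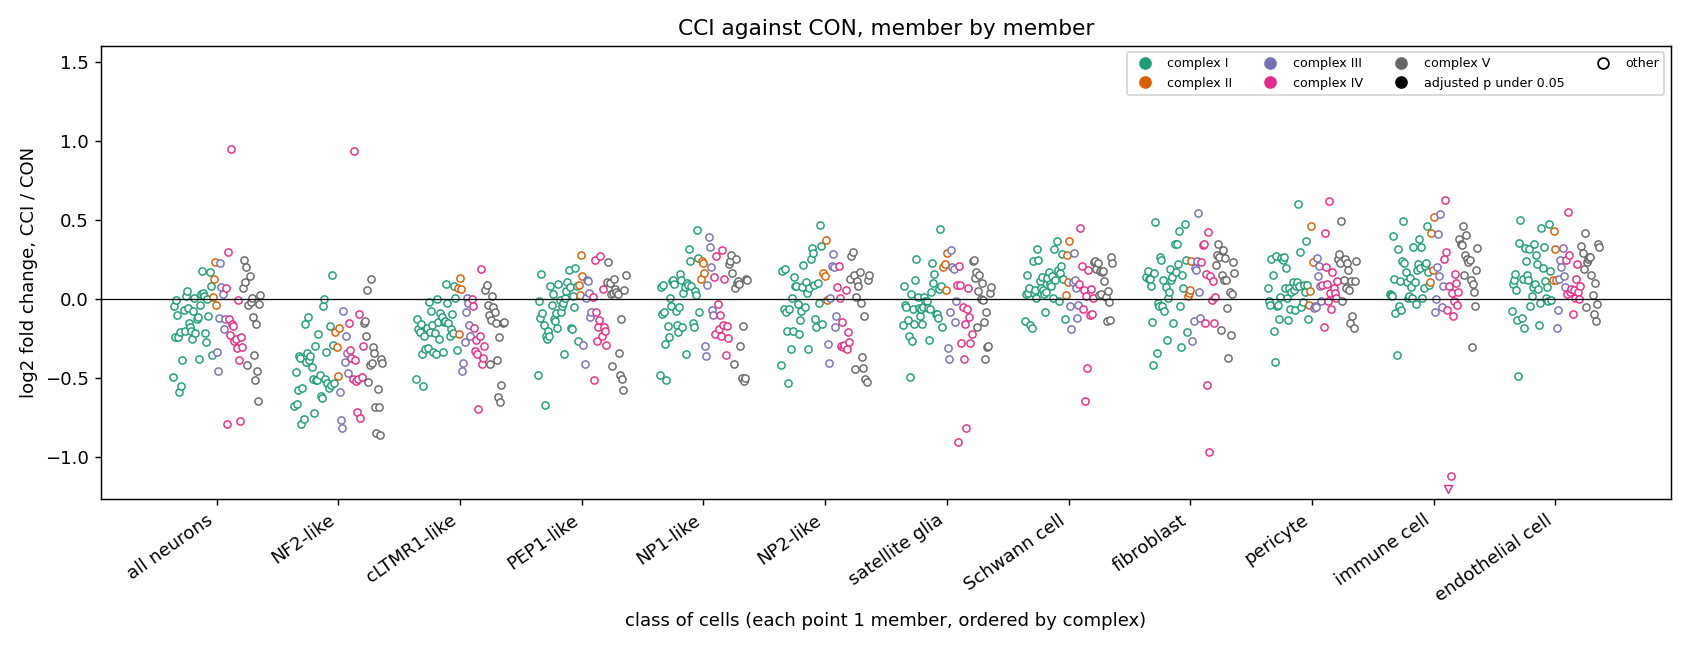
Log2 fold change of each member, CCI over CON (vertical axis), in each cell type and tested neuron subtype, with 1 point per member. Triangles mark values beyond 1.2 in either direction, and all points are open because none passed at an adjusted p under 0.05. The members centre at -0.12 in neurons, at -0.18 in cLTMR1-like and at -0.40 in NF2-like neurons, and between -0.05 and 0.13 in the other classes.

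Outside neurons no member passed either, in any of the 6 types, by edgeR or DESeq2, and no gene at all passed in edgeR, so that the percentage called was 0 in each. In counts simulated for satellite glia the same test recovered 0% of 2-fold and 0% of 4-fold changes. The lack of calls there thus does not show that nothing changed, and the other non-neuronal types were not simulated. At an unadjusted p under 0.05 there was 1 member in satellite glia, Cox7a1 at -0.82, and 1 in immune cells, Cox6a2 at -1.37. The medians of the members ran from -0.05 in satellite glia to 0.13 in immune cells. Without TMM factors the median of all genes moved by -0.18 in fibroblasts, -0.15 in pericytes and -0.13 in endothelial cells, and the medians of the members became -0.04, -0.06 and 0.01 there. Neurons with Sprr1a under the limit used below had no member called either (0 at an unadjusted p under 0.05, 0 in DESeq2, 1.31% of genes called, 1.29% higher and 0.0132% lower). The difference between the CCI effect in neurons and that in satellite glia was tested in one model, and none of the 82 members and no gene passed, with 0 members at an unadjusted p under 0.05 and 0 in DESeq2.

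Within neurons the fold changes of the members lay lowest in the NF2-like neurons, of which there were 74 and 55 cells in CCI and 66 and 24 in CON. Injured neurons that fell in CIP-like clusters were not part of the subtype tests. Sprr1a-high neurons, defined below, numbered 165 and 122 in CIP-like clusters of CCI. In CCI NF2-like neurons they numbered 6 and 11, in cLTMR1-like 2 and 2, in NP1-like 0 and 3, in PEP1-like 0 and 2 and in NP2-like 0 and 0. The subtype tests thus set mostly CCI neurons that were not Sprr1a-high against CON neurons. No member passed in any of the 5 subtypes by edgeR or DESeq2, with 1.67% of genes called in NF2-like neurons (1.61% higher and 0.0655% lower), 0.503% in NP1-like (0.47% higher and 0.0336% lower) and 0.167% in NP2-like (0.157% higher and 0.00981% lower). In PEP1-like and cLTMR1-like neurons 0.0561% and 0.0536% of genes were called, all of them higher. At an unadjusted p under 0.05 there were 10 members in NF2-like, 7 in cLTMR1-like and 0 in NP1-like, NP2-like and PEP1-like neurons. Over all genes tested that number was 1138 of 10695 in NF2-like, 394 of 11191 in cLTMR1-like, 870 of 11922 in NP1-like, 286 of 10192 in NP2-like and 433 of 12483 in PEP1-like neurons. The medians were -0.40 in NF2-like, -0.18 in cLTMR1-like, -0.04 in PEP1-like, 0.01 in NP2-like and 0.05 in NP1-like neurons. In NF2-like neurons both CCI libraries lay below both CON libraries for 56 of 78 members and above for 1, where 21.5% of genes lay below and 18.1% above. In cLTMR1-like neurons this was 34 of 77 and 0, where 12.3% of genes lay below and 16.4% above. Atp5k had 604 and 544 CPM in CCI and 785 and 1325 CPM in CON NF2-like neurons (log2 fold change -0.85 ± 0.32, adjusted p = 0.316, edgeR), and Atp5md had 993 and 1109 CPM in CCI and 985 and 2476 CPM in CON, where the groups overlapped and the second CON library, with 24 cells, was far above the rest. The lower level in CCI NF2-like neurons was that of the summed counts, in which cells with many UMIs weigh most. The median share over cells was not lower in CCI: it was 3.85 and 5.88% in CCI and 3.18 and 4.99% in CON, and the groups overlapped. The groups were apart in cells with at least 20000 UMIs, of which there were 51 and 45 in CCI and 32 and 10 in CON, while below that they overlapped, with 23 and 10 cells in CCI and 34 and 14 in CON.

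The CCI effect in NF2-like neurons was then set against the mean effect of the other 4 subtypes, a comparison added after the values were seen. Uqcrb and Sdhc were lower, of 80 members, where 1.26% of all genes passed, 1.12% higher and 0.136% lower. Uqcrb, the complex III subunit next to the ubiquinone site (chr13:66900576-66905350), had 572 and 449 CPM in CCI and 692 and 1136 CPM in CON NF2-like neurons, and the groups did not overlap. In NP1-like neurons Uqcrb had 483 and 499 CPM in CCI and 418 and 534 CPM in CON, and in PEP1-like neurons 401 and 430 CPM in CCI and 351 and 494 CPM in CON, where they did. The difference of the effects was -0.74 ± 0.16 on the log2 scale (adjusted p = 0.0263, edgeR). Sdhc (chr1:171129157-171150640) had 82.7 and 91.5 CPM in CCI and 128 and 123 CPM in CON NF2-like neurons, against 79.1 and 91.9 CPM in CCI and 78.8 and 66.3 CPM in CON PEP1-like neurons, and the difference was -0.73 ± 0.16 (adjusted p = 0.0286, edgeR). The median over members was -0.32, against 0.02 over all genes, 36 members and 1582 of 13206 genes had an unadjusted p under 0.05, and DESeq2 called 14 members, all lower, and 1.74% of genes. Leaving out one library at a time left 0 or 1 member called, namely Uqcrb without the first CCI library, and 0 were called without the cells with the most UMIs. In the same contrast the medians were -0.92 for the nuclear RNAs, long transcripts such as Malat1 that stay in the nucleus, and -1.02 for the dissociation stress list, and the part of RNA quality in the result was not tested.

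Sprr1a, a gene of the cornified envelope family that injured sensory neurons switch on, marked the neurons with a strong injury response. A neuron counted as Sprr1a-high with at least 1000 CPM and at least 5 UMIs of Sprr1a. This held for 212 and 172 neurons in the CCI libraries, 14.6 and 20.1% of the neurons, and for 1 and 1 neuron in the CON libraries, so CON gave no comparison. Of these CCI neurons 77.8 and 70.9% lay in the CIP-like clusters, which held 334 and 171 cells in CCI and 15 and 1 in CON, and most of the rest were NF2-like, PEP2-like, TRPM8-like or unnamed. Sprr1a was among the markers that named the CIP-like clusters, so part of this overlap was set by the naming. The cells near the limit, from 500 to 2000 CPM, numbered 121 and 58. The share of the summed members was 3.58 and 3.76% in Sprr1a-high neurons, against 3.80 and 4.08% in the other neurons of the same libraries. The mitochondrially encoded genes took 2.96 and 2.95% of UMIs in Sprr1a-high neurons, against 3.99 and 3.75% in the others. In both libraries both shares were thus lower in Sprr1a-high neurons.

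By gene the members went in both directions. With the library as a block 16 of 82 members were higher in Sprr1a-high neurons and 9 lower, where 52.8% of all genes tested passed (25.6% higher and 27.2% lower). The median was 0.03, against 0.00 over all genes. This test used only the Sprr1a-high sum and the other sum of each CCI library. With the library as a block, little was left to measure the spread of a single gene. The p-values of this test, such as that of Cox5a below, thus do not show the spread between animals. The direction of the small changes depended on the scaling. TMM factors were lower in the Sprr1a-high sums (0.942 and 0.927) than in the others (1.10 and 1.04), and without them the median of all genes moved by -0.19, and 3 members were higher and 42 lower, with 23 of the 25 members keeping their sign and Uqcrq and Atp5g2 changing it. The 3 that were higher on either scale were Cox5a, Atp5d and Atp5md. Cox5a had 1408 and 1490 CPM in Sprr1a-high neurons, against 1042 and 1126 CPM in the others, a log2 fold change of 0.62 ± 0.08 (adjusted p = 1.04e-09, edgeR) with TMM factors. Atp5d had 1097 and 1351 CPM, against 879 and 1073 CPM in the others, at 0.52, and Atp5md had 583 and 562 CPM, against 507 and 464 CPM in the others, at 0.44. All 3 were higher in both libraries. Sdhb at 0.35, Uqcr10 at 0.33, Ndufs4 at 0.29 and Sdhc at 0.25 also passed with TMM factors, but Ndufs4 was at -0.06 outside the CIP-like clusters (adjusted p = 0.848, edgeR). Their CPM differed little: Sdhc had 77.2 and 92.7 CPM in Sprr1a-high neurons, against 72.6 and 91.0 CPM in the others, and Cox6b1 had 907 and 985 CPM, against 878 and 997 CPM.

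The 9 lower members had a negative fold change on both scales. Sdha had 83.8 and 83.5 CPM in Sprr1a-high neurons, against 120 and 122 CPM in the others (-0.34). Ndufb5, a membrane-arm subunit of complex I, had 220 and 224 CPM, against 311 and 337 CPM in the others (-0.35), and Ndufv3 had 276 and 347 CPM, against 404 and 500 CPM in the others (-0.34). Ndufb8, Ndufs3, Ndufb3 and Uqcrc2 were lower by fold changes of -0.21, -0.25, -0.20 and -0.20. The other 2 were restricted forms. Cox4i2 was at 2 and 5 UMIs in Sprr1a-high neurons and at 87 and 107 UMIs in the others, and since it could pass the filter on low counts through the others its test is not read. Cox7a1 had 1.07 and 1.86 CPM, against 3.52 and 4.34 CPM in the others (-1.25 ± 0.28). Outside the CIP-like clusters 7 members were higher and 0 lower (26.0% of genes), with Atp5md at 0.85, Cox5a at 0.72, Atp5d at 0.52, Atp5k at 0.48 and Uqcr10 at 0.44. The Sprr1a-high neurons there held 0 and 3 NP1-like, 0 and 2 PEP1-like and no NP2-like or SST-like cells. All CCI neurons included 197 and 93 NP1-like and 245 and 171 PEP1-like cells. Atp5md, Cox5a, Atp5k and Uqcr10 were also higher in NF2-like neurons than in the other tested subtypes. The part of the subtype mix in these comparisons was not tested. Leaving out either CCI library left 1 member called, in a fit that set the 2 sums of the remaining library against each other and took its spread only from the other neurons of the 2 CON libraries. Without the library block 4 passed.

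**Figure D5:**
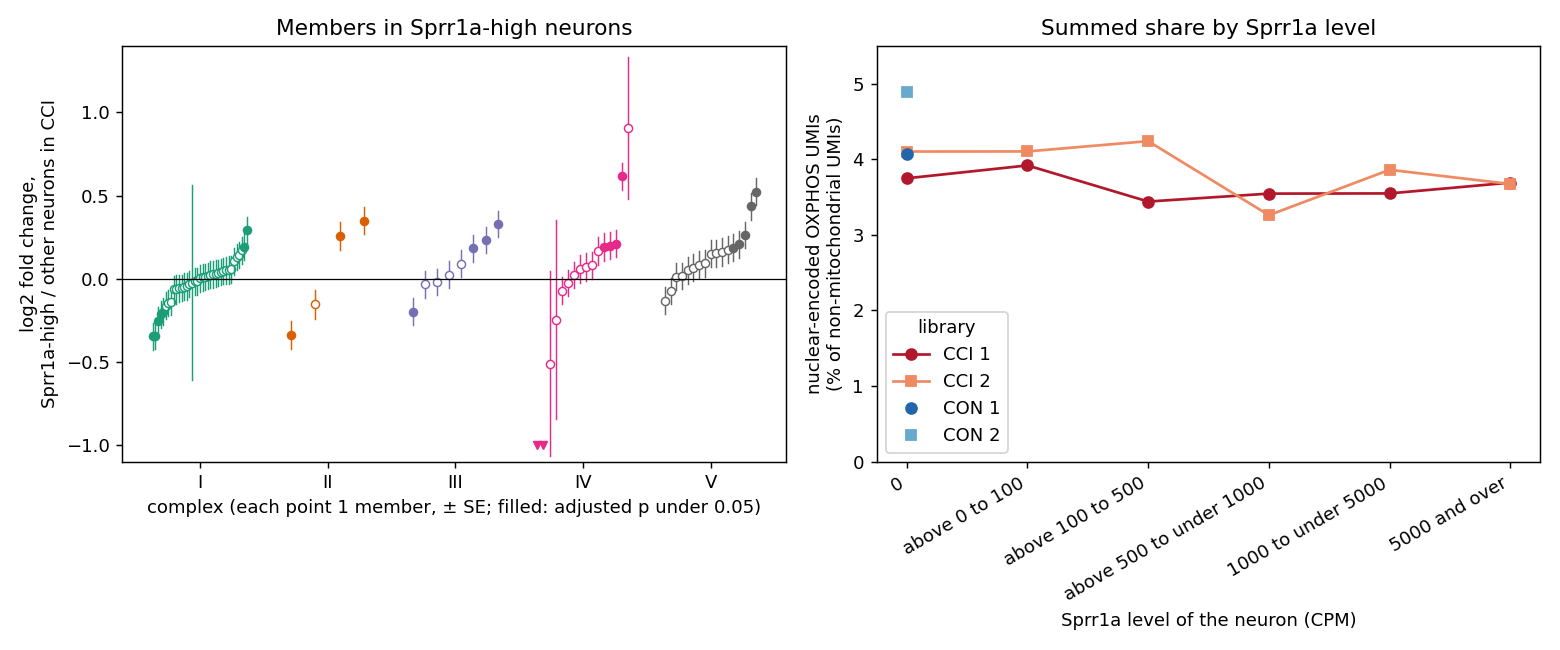
Left, log2 fold change of each member in Sprr1a-high over other neurons of the CCI libraries (± SE), grouped by complex, where Cox4i2 and Cox7a1 lie beyond -1 and are drawn as triangles at the edge. Right, share of UMIs on the members (percent) by Sprr1a level in CPM, low to high, for the CCI libraries, with the CON libraries at 0 CPM. The share ran from 3.75% at 0 CPM to 3.69% at 5000 CPM and above in the first CCI library and from 4.10 to 3.67% in the second.

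Across Sprr1a levels the share did not follow a steady course. In the first CCI library it was 3.75% in neurons with no Sprr1a UMI, 3.92% up to 100 CPM, 3.44% up to 500 CPM, 3.55% up to 1000 CPM, 3.55% up to 5000 CPM and 3.69% above. In the second it was 4.10, 4.10, 4.24, 3.26, 3.86 and 3.67% over the same steps, while CON neurons with no Sprr1a UMI had 4.07 and 4.88%. Related lists were called in both directions between Sprr1a-high and other neurons, where 25.6% of all genes tested were higher and 27.2% lower. Of 80 cytosolic ribosomal proteins 51 were higher and 2 lower, of 77 mitochondrial ribosomal proteins 25 were higher and 6 lower, and of 44 OXPHOS assembly factors 13 were higher and 8 lower. Glycolysis was split, with 6 of 21 higher and 7 lower: Slc2a1 at 1.66 ± 0.09 and Pgk1 at 0.92 ± 0.08 were higher, while the phosphofructokinase Pfkm at -1.14 ± 0.10 and Ldhb, a lactate dehydrogenase subunit, at -1.03 ± 0.09 were lower. In the TCA list 3 of 18 were higher and 2 lower, with the mitochondrial pyruvate carrier Mpc1 at 0.75 among the higher. These lists were counted with TMM factors only, and the median of the cytosolic ribosomal proteins, 0.22, was close in size to the shift of -0.19 in all genes without these factors.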

How the data were processed

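Unique molecular identifier counts per gene and cell barcode were deposited for 4 libraries; the authors made them with Cell Ranger 5.0.1 on the mm10 build with Ensembl 100 annotation (CASAVA 1.8 for base calls, per the labels), and the study also describes an aggregated, downsampled matrix. Barcodes with over 500 genes detected and a mitochondrial share below 20% were clustered with Seurat 5.3.0 (SCTransform, sctransform 0.4.2, with the mitochondrial share regressed out; anchor integration; 2000 variable features without the members, the related gene lists and injury genes; 10 principal components; resolution 0.8) and named from at least 3 markers. Counts were summed per library and class without mitochondrial genes and tested with edgeR 4.0.16 (quasi-likelihood, TMM, filterByExpr, limma 3.58.1, R 4.3.3), with Benjamini-Hochberg adjustment over all genes and a threshold of 0.05; the script was tested on simulated data. Comparisons within libraries carried the library as a block. Classes with fewer than 20 cells in a library were not tested. DESeq2 1.42.0, upper-quartile factors, library totals, no filter on low counts, thinned sums, stricter cell filters (1000 genes, 10%), clustering without integration, leaving out the 5% of cells with the most UMIs, Sprr1a limits of 500 and 2000 CPM and leaving out each library were the alternatives. The genes named were the isoform pairs, the 2 highest members per complex in neurons, the Sdh genes and Ndufa4, and per comparison up to 10 called members per direction with the largest fold change and a mean of at least 5 log2 CPM, with values of single members outside this rule chosen after they were seen. The members, gene lists and some settings were chosen with earlier results of these data known. Cells are not replicates; the library is. Labels number the libraries of each group 1 and 2, and with only 2 pairs the numbers are not known to pair them. Gene names and coordinates are those of RefSeq on GRCm38.p6.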

Additional observations from a re-analysis of the deposited data

Results flagged for a closer look

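The CCI effect on 2 members was called different between NF2-like neurons and the mean of the other tested subtypes (edgeR quasi-likelihood interaction test). This comparison was added after the values were seen, and 1.26% of all genes tested passed in it. The difference was -0.74 on the log2 scale for Uqcrb of complex III (adjusted p = 0.0263) and -0.73 for Sdhc of complex II (adjusted p = 0.0286). Both fold changes stayed negative under every alternative run. Uqcrb no longer passed without the second CCI library or either CON library, and Sdhc did not pass without any one of the 4 libraries. Neither passed without the cells with the most UMIs (adjusted p = 0.0592 for Uqcrb and 0.0747 for Sdhc).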

How the results depend on the processing

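For CCI against CON no filter on low counts gave 1 member in neurons and 3 in cLTMR1-like neurons, and leaving out 1 library gave 0 to 8 members in neurons, 0 to 3 in neurons under the Sprr1a limit and in PEP1-like neurons, 0 to 13 in cLTMR1-like and 0 to 1 in NF2-like neurons. In Sprr1a-high against other neurons 25 members became 15 with DESeq2, 45 with library totals, 4 with no replicate block, 15 with the limit of 2000 CPM, 7 outside CIP-like clusters, 14 without the cells with the most UMIs and 1 without either library, and Atp5g2 turned to -0.0015 with library totals and Ndufs4 to -0.06 outside CIP-like clusters. The fit without a CCI library took its spread from the other neurons of CON and says nothing on stability. Against the other types, thinning to equal depth gave 37 members in neurons, 17 in satellite glia, 12 in fibroblasts and 6 in immune cells, DESeq2 gave 10 in Schwann cells and 28 in pericytes, and library totals gave 38 in pericytes and 34 in immune cells. Leaving out 1 library gave 43 to 70 in neurons, 3 to 12 in Schwann cells, 9 to 37 in fibroblasts, 10 to 32 in pericytes and 5 to 16 in immune cells. Between subtypes, library totals gave 36 in NP1-like and 47 in NP2-like neurons, and leaving out 1 library gave 9 to 15, 11 to 32 and, in cLTMR1-like neurons, 12 to 24. For the NF2-like difference DESeq2 gave 14, no filter 5, leaving out 1 library 0 to 1, and leaving out the cells with the most UMIs 0. The causes of these changes were not tested, apart from the smaller number of libraries or UMIs.

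With the replicate number as a block, 0 members passed in every CCI against CON comparison, and in neurons 10.1% of all genes did. Same-numbered libraries deviated together (r = 0.342 to 0.638 over types), but with 2 pairs this shows only a shared number. The barcodes left out for too few genes also went by number. They were 5 and 8 in the first CON and CCI libraries and 578 and 569 in the second. The labels do not say what the number stands for. A clustering without integration was not run for satellite glia, Schwann cells, the type comparisons and the neuron and glia difference, since it did not separate those 2 glial types. With 2 libraries per group and CON neurons of 1098 and 226 cells, the depth and number of libraries limit what changes in the members can be seen. In simulated counts the CCI test recovered 44% of 2-fold and 89% of 4-fold changes in neurons. It recovered 14 and 78% in NF2-like neurons and 0 and 0% in satellite glia.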
